A study of Homo sapiens with 48 samples.

Results

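The 36 keratin and epithelial junction genes are a fixed list of keratins, claudins and other tight junction genes, desmosomal genes, cadherin and catenin genes, a connexin, EPCAM and SFN, out of 20007 protein-coding genes. All 36 were found by symbol in the GENCODE annotation of hg38. A ChIP-seq region was given to the nearest of these genes when it lay within 20 kb of one of its annotated transcript start sites. For the other protein-coding genes, a region counted for every gene within 20 kb. The cells were L3.6pl, an established human pancreatic ductal adenocarcinoma line. Chromatin was precipitated with antibodies to FOSL1 in vehicle, and to H3K27ac, RELA and RELB in vehicle (PBS), after 30 min or 6 h TNFα and after 30 min or 6 h TWEAK, which gives 16 conditions of 3 replicates and 48 samples. The labels do not state how long vehicle was applied. Each condition had 1 merged peak list, so no difference between lists could be tested against the spread between replicates, and for RELA at 30 min TNFα the peak names mention 1 replicate, so it is not settled that all 3 were merged.

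Keratins are the intermediate filaments of epithelial cells. They assemble from 1 type I and 1 type II partner, and desmosomes anchor them at the cell surface, where tight, adherens and gap junctions also join neighbouring cells. RELA carries the rapid canonical NF-κB response to TNFα, RELB the slower noncanonical response that TWEAK induces, and FOSL1 is an AP-1 factor found at enhancers. H3K27ac is a histone mark of active promoters and enhancers.

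On chromosomes 1 to 22, X and Y, the lists held 58864 FOSL1 regions, 53895 to 61194 H3K27ac regions, 2791 to 11266 RELA regions and 2414 to 4101 RELB regions. Tandem repeats held 26.3% to 87.8% of the RELA regions and 59.6% to 94.7% of the RELB regions of a list. In vehicle, H3K27ac lay within 1 kb of a start site of 5 of 5 epithelial markers, namely EPCAM, KRT8, KRT18, KRT19 and CDH1, of which all but CDH1 belong to the list, beside 66.8% of all protein-coding genes outside the list. It was found at 0 of 3 acinar and 0 of 3 islet markers, and also at 3 of 3 fibroblast, 2 of 3 endothelial and 2 of 4 leukocyte markers, so the mark did not single out epithelial genes. The part of the other markers in the results was not tested.

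Sequences under strong RELA regions near these genes are given first, because they show which sites the values below belong to. Each is the 200 bases around the summit of a RELA region of the 30 min TNFα list, 5′ to 3′ on the plus strand of hg38. Capitals mark a match to the NF-κB consensus of 10 letters or to the AP-1 sequence TGANTCA, both searched on both strands.
PKP1 site at chr1:201311063-201311262: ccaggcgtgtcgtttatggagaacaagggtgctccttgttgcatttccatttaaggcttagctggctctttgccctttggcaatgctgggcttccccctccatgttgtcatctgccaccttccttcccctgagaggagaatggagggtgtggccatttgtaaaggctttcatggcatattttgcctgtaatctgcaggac
JUP site at chr17:41793534-41793733: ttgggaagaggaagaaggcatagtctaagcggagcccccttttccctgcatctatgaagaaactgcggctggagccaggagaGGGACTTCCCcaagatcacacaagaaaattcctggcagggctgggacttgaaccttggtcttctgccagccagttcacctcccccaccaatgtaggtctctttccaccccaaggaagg
KRT8 site at chr12:52895381-52895580: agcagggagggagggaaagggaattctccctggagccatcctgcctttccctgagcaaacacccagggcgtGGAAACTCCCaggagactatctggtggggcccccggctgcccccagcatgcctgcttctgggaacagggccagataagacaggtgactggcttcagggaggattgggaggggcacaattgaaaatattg
KRT6B site at chr12:52442711-52442910: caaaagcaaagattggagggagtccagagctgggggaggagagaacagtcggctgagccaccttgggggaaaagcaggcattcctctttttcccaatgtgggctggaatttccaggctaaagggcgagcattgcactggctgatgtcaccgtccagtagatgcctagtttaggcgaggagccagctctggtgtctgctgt
KRT7 site at chr12:52244187-52244386: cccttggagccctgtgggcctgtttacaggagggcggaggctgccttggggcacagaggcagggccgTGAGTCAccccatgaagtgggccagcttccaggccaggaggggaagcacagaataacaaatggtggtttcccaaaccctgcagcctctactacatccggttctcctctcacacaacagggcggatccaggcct
CLDN4 site at chr7:73809591-73809790: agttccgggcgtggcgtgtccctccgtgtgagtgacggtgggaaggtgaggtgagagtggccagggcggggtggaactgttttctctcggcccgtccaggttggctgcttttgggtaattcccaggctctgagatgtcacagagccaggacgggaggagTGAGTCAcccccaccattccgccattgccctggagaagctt
PKP1 site at chr1:201311535-201311734: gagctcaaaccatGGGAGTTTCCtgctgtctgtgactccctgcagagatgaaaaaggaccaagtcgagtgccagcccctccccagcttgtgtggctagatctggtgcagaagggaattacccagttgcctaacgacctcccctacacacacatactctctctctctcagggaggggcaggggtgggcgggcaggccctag
The JUP, KRT8 and second PKP1 sequences each held an NF-κB match, namely GGGACTTCCC, GGAAACTCCC (on the minus strand) and GGGAGTTTCC, centred 13.5, 24.5 and 82.5 bases from the summit. The KRT7 and CLDN4 sequences each held the AP-1 match TGAGTCA, 30.0 and 62.0 bases from the summit. The first PKP1 and the KRT6B sequences held neither. Of all 28 RELA regions that the keratin and junction genes had at 30 min TNFα, 11 (39.3%) held an NF-κB match and 4 (14.3%) an AP-1 match. Among the 8280 other regions of that list outside tandem repeats, scored over windows of the same length, 49.6% and 19.0% did.

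Most of the keratin and junction genes already had FOSL1 and H3K27ac nearby in vehicle. FOSL1 lay within 20 kb of 35 of 36 genes (97.2%), beside 77.9% of all other protein-coding genes. DSC2, which encodes the desmosomal cadherin desmocollin 2, was the 1 gene without it. H3K27ac lay near 35 of 36 genes in vehicle (97.2%, others 82.5%), and the 1 gene without it was GJB2, which encodes the gap junction protein connexin 26. All 36 genes had H3K27ac after 30 min TNFα (others 80.9%), 6 h TNFα (others 82.4%), 30 min TWEAK (others 81.4%) and 6 h TWEAK (others 82.1%). Among genes with H3K27ac within 1 kb of a start site in vehicle, a limit set after the data were seen, 96.6% of 29 keratin and junction genes and 90.8% of 13333 others had FOSL1. Regions and genes are not replicates and the 36 genes are the whole list, so no interval is given for these shares.

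RELA was found near more of these genes after TNFα. It lay near 1 of 36 genes in vehicle (2.78%, others 2.34%), 16 at 30 min TNFα (44.4%, others 28.8%) and 6 at 6 h TNFα (16.7%, others 14.4%). After TWEAK it lay near 2 genes at 30 min (5.56%, others 3.75%) and 2 at 6 h (5.56%, others 2.45%). With a region counted for every gene within 20 kb instead of the nearest, as for the others, KRT16 was added and the shares at 30 min and 6 h TNFα were 47.2% and 19.4%. With each region given only to the nearest of all protein-coding genes, the shares were 38.9% (others 19.8%) and 16.7% (others 9.5%). Where only genes with an acetylated start were compared, 12 of 29 keratin and junction genes (41.4%) and 34.9% of the others had RELA at 30 min TNFα, or 44.8% of the 29 when a region also counted for several genes. RELB lay near 0 genes in vehicle (others 1.39%), 0 at 30 min TNFα (others 0.726%), 1 at 6 h TNFα (2.78%, others 1.65%), 0 at 30 min TWEAK (others 0.616%) and 3 at 6 h TWEAK (8.33%, others 6.54%). By the main rule, the gap between these genes and the others was thus 15.7 percentage points in the RELA list of 30 min TNFα. It was at most 3.1 points in the other RELA and RELB lists. Those smaller gaps changed sign under some alternatives for RELA at 6 h TNFα, RELA at both times of TWEAK, and RELB at 6 h of either ligand.

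**Figure D1:**
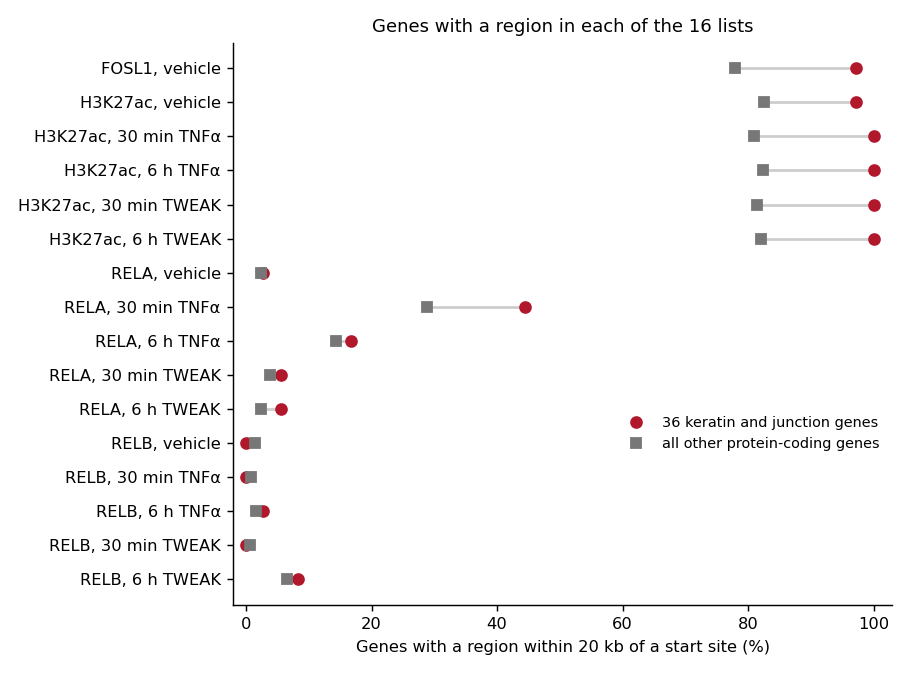
Share of genes with a region within 20 kb of a start site (%, x axis) in each of the 16 peak lists (y axis), with circles for the 36 keratin and junction genes and squares for the 19971 other protein-coding genes. Among the RELA and RELB lists, the circle stands farthest from the square for RELA at 30 min TNFα, at 44.4% against 28.8%.

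A further 82 keratin and junction genes outside the list of 36 were counted beside them. Of these, 31.7% had RELA at 30 min TNFα, beside 28.8% of all genes outside the 36. At 6 h TNFα 13.4% had RELA (all outside the 36, 14.4%), and at 6 h TWEAK 6.1% had RELB (6.54%). The 26 with RELA at 30 min TNFα included KRT10, which encodes a keratin of differentiated epidermis, CTNND1, which encodes p120 catenin, and GJB5, which encodes a connexin. The FOSL1 share of the 82 genes was 76.8% (77.9%) and the H3K27ac share in vehicle 75.6% (82.5%).

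**Figure D2:**
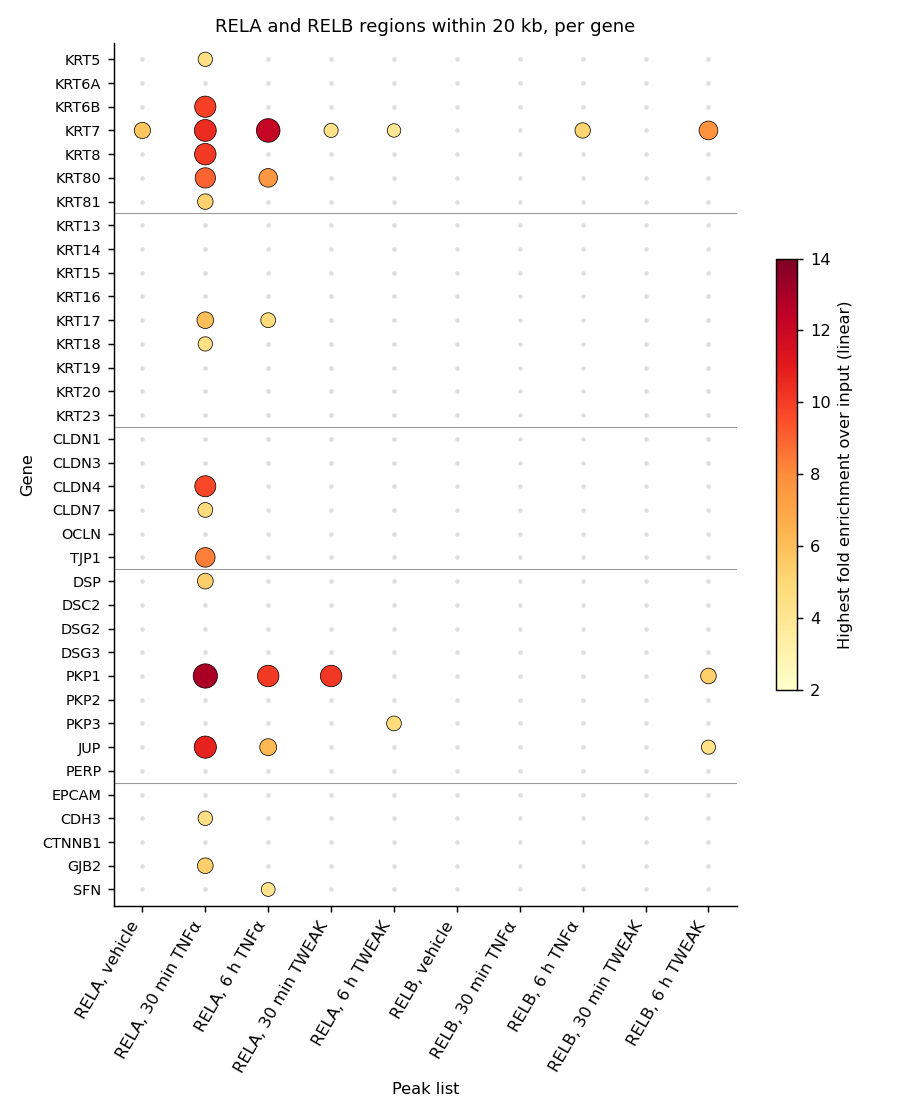
Highest fold enrichment over input (circle size and colour, linear scale) among the RELA and RELB regions given to each of the 36 genes (y axis, grouped from top to bottom as type II keratins, type I keratins, tight junction, desmosome, and adherens or gap junction and other genes) in each of the 10 lists (x axis). A small dot stands for no region, and KRT7 is the gene with circles in the most lists.

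Over all RELA and RELB lists, the regions merged into 30 sites beside 18 of the genes. Of these, 28 sites were in the RELA list of 30 min TNFα, and 9 of the 28 (32.1%) were also in that of 6 h. Among the other regions of the 30 min list, RELA of 6 h TNFα overlapped 45.2% of all and 36.4% of those near a start. The 2 sites outside the 30 min TNFα list were a site of SFN found at 6 h TNFα and a site of PKP3 found at 6 h TWEAK, the second in a tandem repeat. For 25 of the 30 sites the gene was also the nearest of all protein-coding genes. The nearest start was that of KRT86 for both KRT81 sites, KRT75 for the KRT6B site and P3H4 for 2 JUP sites. Canonical transcripts held 11 sites in an intron and 1 in an exon, and 7 sites lay within 1 kb of a start site. The fold enrichment given below is that of ChIP over input at the summit and is read within a list. A site that is missing from a list did not pass peak calling there, which does not show that the factor was absent.

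Among type II keratins, KRT7, a keratin of simple and ductal epithelia, had 3 sites. The first lies upstream of the gene. RELA was called there with a fold enrichment of 5.75 in vehicle, 10.47 at 30 min TNFα, 9.24 at 6 h TNFα and 4.0 at 6 h TWEAK. RELB was called there at 6 h TNFα, at 4.15, and neither factor was called in the other lists. The strongest of the 3, at chr12:52244164-52244473, lies in intron 6 of the canonical transcript and 91 bp from the start of another annotated transcript. RELA there was 5.36 in vehicle, 9.84 at 30 min TNFα, 12.19 at 6 h TNFα and 4.38 at 30 min TWEAK, and RELB was 5.18 at 6 h TNFα and 7.72 at 6 h TWEAK. Both sites overlapped FOSL1 and had H3K27ac in all 5 lists. The third site, at chr12:52241340-52241479 in intron 4, had RELA at 30 min and 6 h TNFα, at 4.65 and 5.66, and neither FOSL1 nor H3K27ac in any list. KRT7 was the only one of the 36 genes with RELA in vehicle and the only one with RELB after TNFα.

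**Figure D3:**
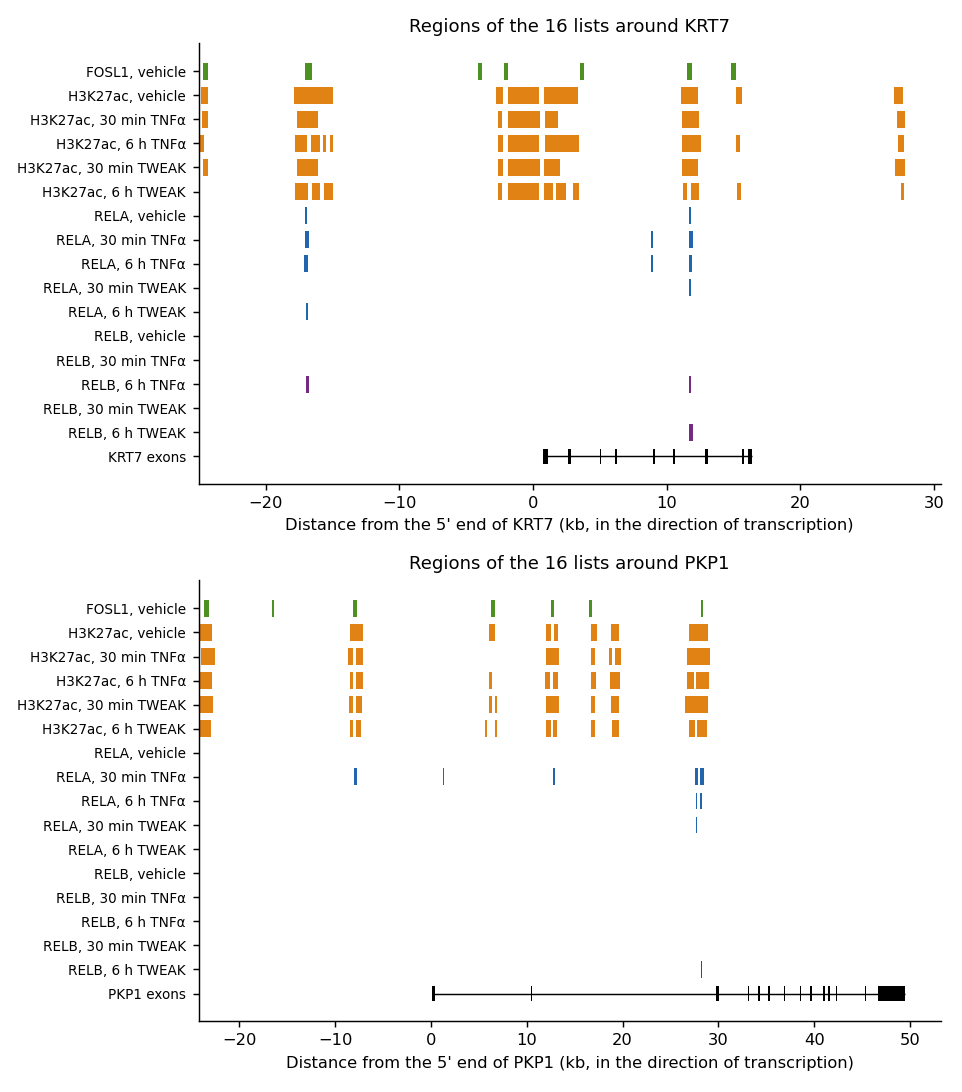
Regions of the 16 lists (rows) around KRT7 (top) and PKP1 (bottom), drawn by distance from the 5′ end of the gene (kb, x axis), with the exons of the canonical transcript in the lowest row. The RELA and RELB regions of KRT7 lie in 3 columns, of which 2 coincide with FOSL1 and H3K27ac, and those of PKP1 in 5 places, of which 4 have H3K27ac.

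KRT8, the type II partner of KRT18 in simple epithelia, had 1 RELA site at chr12:52895354-52895592, with a fold enrichment of 10.08 at 30 min TNFα. That site lay 6386 bp from an annotated start but 54473 bp from the gene's 5′ end. KRT6B, a keratin induced in wounded and proliferating epidermis, had 1 at chr12:52442685-52442918, at 9.89. KRT80 had 1 at chr12:52168383-52168585, 17265 bp downstream of its nearest start and outside its canonical transcript, with 9.0 at 30 min and 7.56 at 6 h TNFα. The KRT8 and KRT6B sites had FOSL1 and H3K27ac in all 5 lists, and the KRT80 site, with 2 NF-κB matches, had neither. KRT81, a hair keratin, had sites at chr12:52280250-52280765 and chr12:52280964-52281145, both inside intron 2 of KRT86, at 5.27 and 4.58. KRT5, a basal cell keratin, had 1 at 4.50. KRT6A had no site. RELA was thus near 6 of 7 type II keratins at 30 min TNFα, beside 28.8% of all other protein-coding genes. For KRT81 and KRT6B the sites were nearer to a start of KRT86 and KRT75.

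Among 9 type I keratins, RELA was near 2 at 30 min TNFα. KRT17, a stress and basal keratin, had a site at chr17:41625713-41626063, 1039 bp upstream of its start, with 6.07 at 30 min and 4.76 at 6 h TNFα. Its other site, at chr17:41618771-41618960, had 5.72 and 4.83. Both overlapped FOSL1, and the first also had H3K27ac in all 5 lists. KRT18 had a site 4 bp from a start, at 4.48. KRT13, KRT14, KRT15, KRT16, KRT19, KRT20 and KRT23 were nearest to no RELA or RELB region in any list. By location, 7 of 8 keratin genes of chromosome 12 and 1 of 8 of chromosome 17 had RELA at 30 min TNFα, beside 28.8% of all other protein-coding genes. With a region counted for every gene within 20 kb, these were 7 of 8 and 2 of 8. The contrast was noticed after the values were seen and has no test. FOSL1 was near 8 of 8 in both clusters (others 77.9%).

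Among 6 tight junction genes, CLDN4, TJP1 and CLDN7 had RELA, all at 30 min TNFα. CLDN4, a claudin of the apical seal, had 3 sites. They were at chr7:73809566-73809841 with 9.70, at chr7:73828373-73828554 with 4.94 and at chr7:73832478-73832704, in exon 1, with 8.6, and each had H3K27ac in all 5 lists. TJP1, which encodes the scaffold ZO-1, had a site in intron 11 at chr15:29736606-29736855 with 8.36, which overlapped FOSL1 and had H3K27ac in every list but that of 30 min TWEAK. This TJP1 site lay 3777 bp from an annotated start but 232205 bp from the gene's 5′ end. The CLDN7 site lay 193 bp from a start and had 4.80. CLDN1, CLDN3 and OCLN had none within 20 kb.

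Just outside that limit lay a RELA region stronger than any inside it. It was 22644 bp from CLDN1 and had a fold enrichment of 18.99 at 30 min TNFα. RELA was also called there in vehicle at 6.13, at 6 h TNFα at 11.62 and at 30 min TWEAK at 10.37, and RELB at 6 h TWEAK at 9.03. Next outside were a RELA region of 6 h TNFα 23189 bp from KRT19, at 6.14, and one of 30 min TNFα 23926 bp from JUP, at 6.06. The farthest regions inside the limit were those of KRT80 and the upstream site of KRT7.

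Of 9 desmosomal genes, PKP1, JUP and DSP had RELA at 30 min TNFα. PKP1, which encodes plakophilin 1 of the desmosomal plaque, had 5 sites. The strongest, at chr1:201310989-201311314 in intron 2, had 12.93 at 30 min and 8.92 at 6 h TNFα and 10.13 at 30 min TWEAK, and it did not overlap FOSL1. It lay 5029 bp from an annotated start but 27711 bp from the gene's 5′ end. Of the regions of the 30 min TNFα list, 92.5% had a lower fold enrichment. Its neighbour at chr1:201311520-201311913 overlapped FOSL1 and had RELA at 9.48 and 10.10 at 30 min and 6 h TNFα, and RELB at 5.35 at 6 h TWEAK. The other 3 PKP1 sites were found at 30 min TNFα alone, at 4.94, 5.00 and 5.95. Among the 36 genes, the RELA regions of 30 min TWEAK belonged to PKP1 and KRT7.

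JUP, which encodes plakoglobin, had a site 6703 bp upstream of its start at chr17:41793283-41793743, with RELA at 10.77 at 30 min and 6.24 at 6 h TNFα. It also had sites at chr17:41800771-41800934, at 4.23, and at chr17:41801453-41801751, where RELA was 4.04 at 30 min TNFα and RELB 4.38 at 6 h TWEAK. All 3 overlapped FOSL1 and had H3K27ac in all 5 lists. DSP, which encodes the keratin linker desmoplakin, had 1 intronic site at chr6:7543141-7543530, at 5.45. The PKP3 region, at 4.77, was the tandem repeat noted above. DSC2, DSG2, DSG3, PKP2 and PERP had none.

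In the remaining group, CDH3, which encodes P-cadherin, had RELA 73 bp from a start at 4.59, and GJB2 had a site at chr13:20182306-20182434 at 5.39, both at 30 min TNFα. SFN, which encodes the epithelial protein 14-3-3 sigma, had RELA 4052 bp upstream at 4.19, at 6 h TNFα. The SFN site overlapped FOSL1 and had no H3K27ac in any list. EPCAM and CTNNB1, which encodes β-catenin, had no site. In all, 18 of the 36 genes had none.

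The RELA sites lay mostly on chromatin that was already marked. Of the 28 RELA regions at 30 min TNFα, 20 (71.4%) overlapped FOSL1, beside 58.0% of all 11238 other regions of the list, 51.1% of the 5178 others within 20 kb of a start and 48.6% of the others outside tandem repeats. In vehicle, H3K27ac lay within 500 bp of 23 of the 28 (82.1%), beside 60% of all others and 68.7% of those near a start. At 30 min TNFα the number was again 23 (82.1%), while the share of the others near a start was 79.2%. Over the 30 sites, 22 had H3K27ac in every list, 7 in no list, and the TJP1 site lacked it in 1 list, so no site without H3K27ac in vehicle had it after a ligand. The 7 were those of SFN, PKP3, KRT80 and GJB2, the third KRT7 site, 1 of PKP1 and 1 of KRT17. RELB of 6 h TWEAK overlapped 3 of the 28 (10.7%), beside 27.3% of all others and 15.7% both of those near a start and of those outside tandem repeats.

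FOSL1 was also dense around these genes. The median number of FOSL1 regions within 20 kb was 4.0 per keratin or junction gene and 2.0 per other gene, and the median length under H3K27ac in vehicle was 4.52 kb and 2.26 kb. The window searched was not longer, with a median of 44.2 kb against 49.5 kb. Among genes with an acetylated start the medians were 4.0 and 2.0 regions and 4.61 and 3.14 kb. With regions given to the nearest gene, CLDN4 had 10 FOSL1 regions, KRT8, JUP and CDH3 7 each, and KRT7, CLDN1, OCLN, PKP1 and PKP2 6 each. KRT80 had the FOSL1 region of highest fold enrichment, 16.17, followed by GJB2 at 15.43 and PKP1 at 15.02. Genes with a RELA or RELB site and genes without one both had a median of 4.0 FOSL1 regions.

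**Figure D4:**
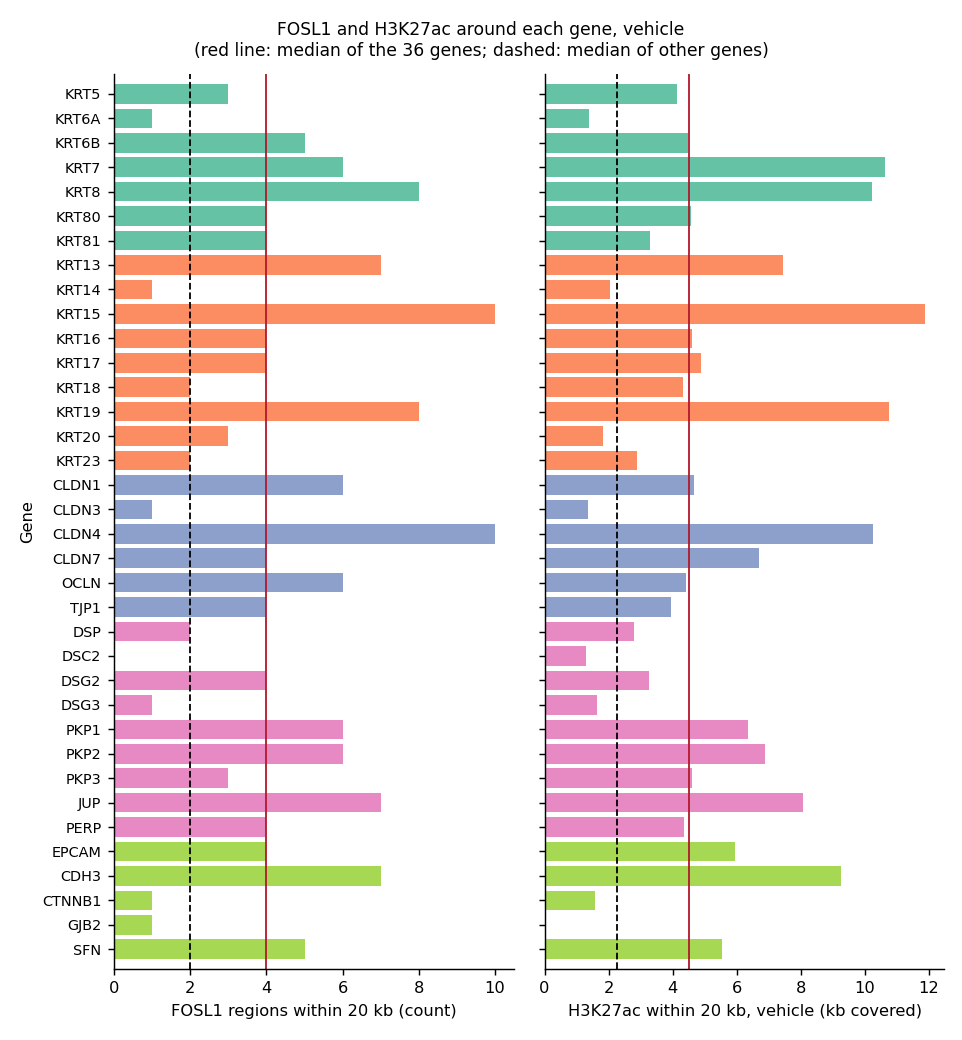
Number of FOSL1 regions (left, x axis) and length under H3K27ac (right, kb) within 20 kb of the start sites of each of the 36 genes (y axis, coloured by group) in vehicle, with a region counted for every gene it is near. The red line marks the median of the 36 genes, 4.0 regions and 4.52 kb, and the dashed line that of the other genes, 2.0 regions and 2.26 kb.

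The longest acetylated stretches in vehicle belonged to KRT15, with 11.89 kb, KRT19, with 10.76 kb, KRT7, with 10.62 kb, CLDN4, with 10.25 kb, and KRT8, with 10.21 kb. KRT13, KRT15 and KRT19 are neighbours on chromosome 17 and share part of these regions. No list had H3K27ac within 1 kb of a start of KRT6B, KRT14, KRT20, KRT81, DSG3, PKP1 or GJB2, although all but GJB2 had more than 1 kb within 20 kb in vehicle. KRT14 and KRT81 encode a basal and a hair keratin, and DSG3 encodes a desmoglein of stratified epithelia.

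The median length under H3K27ac around these genes was shorter in each treated list than in vehicle. The median ratio to vehicle over the 35 genes with at least 1 kb in vehicle was 0.872 at 30 min TNFα (other genes 0.856), 0.915 at 6 h TNFα (others 0.994), 0.887 at 30 min TWEAK (others 0.886) and 0.853 at 6 h TWEAK (others 0.887). The ratio was above 1 in 10 genes at 30 min TNFα (28.6%, others 21.1%), in 10 at 6 h TNFα (28.6%, others 47.6%), in 5 at 30 min TWEAK (14.3%, others 22.5%) and in 2 at 6 h TWEAK (5.71%, others 16.3%). At these settings the gap between the medians was widest at 6 h TNFα. With q at most 0.001 the gap was wider at 6 h TWEAK (0.797 and 0.884) than at 6 h TNFα (0.911 and 0.991), and within 5 kb the 6 h TNFα medians were 0.96 and 0.995. In 18 of the 35 genes the ratio was under 1 in all 4 comparisons, a count that was not made for the other genes. The 4 ratios share the vehicle list, and covered length depends on how much was called in each list, whose depth is unknown.

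Single genes differed from vehicle in both directions. At 6 h TNFα the ratio was highest for TJP1, where 3.94 kb became 4.90 kb (1.25), then CTNNB1 (1.09), DSG2 (1.06), KRT5 (1.05) and KRT6A (1.04). It was lowest for CLDN3, a claudin gene whose 1.37 kb became 0.74 kb (0.544), then KRT14 (0.729), DSG3 (0.772), OCLN (0.801) and PKP3 (0.822). At 6 h TWEAK, CTNNB1 (1.05) and KRT5 (1.04) were above 1 and KRT16 (0.975), JUP (0.969) and TJP1 (0.961) followed. CLDN3 was again lowest, with 0.31 kb (0.225), then KRT80 (0.618), DSG3 (0.655), PKP2 (0.673) and OCLN (0.683). GJB2 had none in vehicle and 0.54 kb, 0.32 kb, 0.39 kb and 0.30 kb after 30 min and 6 h TNFα and 30 min and 6 h TWEAK, and no gene went from under 1 kb to a gain of 1 kb or more.

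For a few genes the 30 min TNFα list had much less H3K27ac than vehicle. At 30 min TNFα, DSC2 had 0.36 kb in place of 1.30 kb in vehicle, and 1.17 kb at 6 h. KRT6A had 0.56 kb in place of 1.39 kb, and 1.44 kb at 6 h. DSG2, which encodes a widely expressed desmoglein, had 1.63 kb in place of 3.26 kb, and 3.46 kb at 6 h. At 30 min TWEAK, DSC2 had 1.13 kb, KRT6A 1.07 kb and DSG2 1.84 kb. In number of regions within 20 kb of the 36 genes, 10 were gained and 27 lost against vehicle at 30 min TNFα, 8 and 11 at 6 h TNFα, 7 and 23 at 30 min TWEAK and 5 and 17 at 6 h TWEAK. Gains and losses were not counted for other genes, and the lists differ in length genome-wide. On the main chromosomes, H3K27ac had 59894 regions in vehicle, 53895 at 30 min TNFα and 61194 at 6 h TNFα. It had 55821 at 30 min TWEAK and 58021 at 6 h TWEAK. The 15 genes with RELA at 30 min TNFα and a ratio had a median of 1.01 at that time and the 20 without it 0.808, and at 6 h TNFα the medians were 0.918 and 0.892. These groups were not compared by a test, and the other protein-coding genes were not split by RELA in the same way.

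The length under H3K27ac is given in every list for genes with strong RELA sites and for some without. KRT7 had 10.62 kb in vehicle, 7.16 kb and 9.37 kb after 30 min and 6 h TNFα, and 7.62 kb and 8.35 kb after 30 min and 6 h TWEAK. All 4 treated lists gave KRT7 less than vehicle. PKP1 had 6.35 kb, 6.47 kb, 6.13 kb, 6.54 kb and 5.07 kb in the same order. JUP had 8.06 kb, 8.16 kb, 8.14 kb, 8.54 kb and 7.82 kb. CLDN4 had 10.25 kb, 11.05 kb, 10.40 kb, 10.14 kb and 8.90 kb. PKP1, JUP and CLDN4 were above vehicle in some treated lists and below it in others, and all 3 were lowest at 6 h TWEAK. KRT6B had 4.47 kb, 3.54 kb, 3.95 kb, 2.56 kb and 3.97 kb, with its lowest value at 30 min TWEAK. KRT8 had 10.21 kb, 9.21 kb, 8.97 kb, 9.5 kb and 9.38 kb, and its partner KRT18 had 4.31 kb, 4.57 kb, 3.96 kb, 4.15 kb and 3.85 kb. KRT8 was below vehicle throughout, while KRT18 was above it at 30 min TNFα. KRT19, a ductal keratin without a RELA or RELB site, had 10.76 kb, 9.13 kb, 9.28 kb, 9.29 kb and 7.64 kb. EPCAM, the epithelial adhesion molecule gene, had 5.95 kb, 5.12 kb, 5.97 kb, 5.49 kb and 5.01 kb. KRT19 was therefore below vehicle in every treated list, and EPCAM in all but that of 6 h TNFα.

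**Figure D5:**
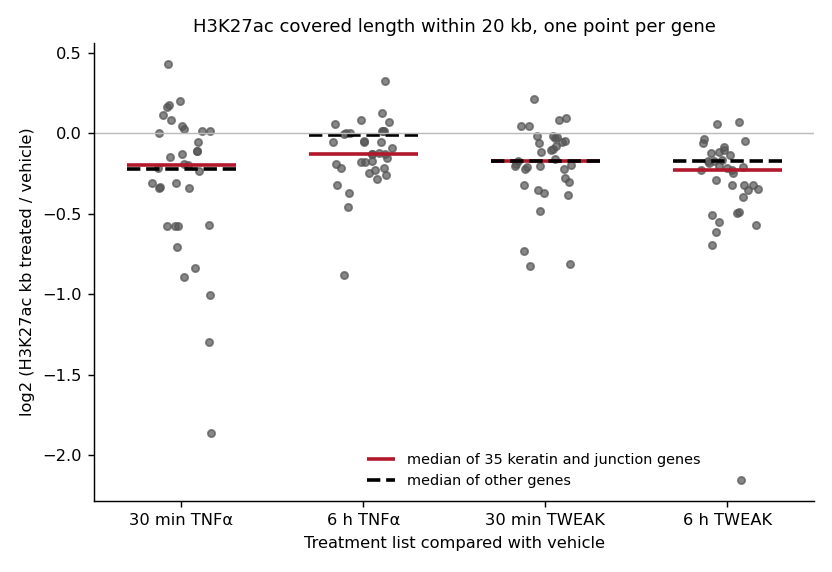
Length under H3K27ac within 20 kb relative to vehicle (log2 ratio, y axis) for each of the 35 genes with at least 1 kb in vehicle (points) in the 4 treated lists (x axis). Solid red lines are the medians of these genes and dashed lines those of other genes, and at 6 h TNFα the median ratios are 0.915 and 0.994.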

How the data were processed

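L3.6pl chromatin was precipitated for FOSL1, H3K27ac, RELA and RELB in 3 replicates per condition. Reads were mapped by the authors to hg38 using Bowtie2 (2.5.0), and they called peaks against input with MACS2 (version not given in the sources used here) without a shifting model. SAMtools (1.18) and deepTools (3.3.2) are named in the submitters' processing notes. RELA was captured on protein G and the rest on protein A beads. The treatment of repeats and multiply mapped reads is not given in the sources used here. The deposited fold enrichment is the authors' ratio of ChIP over input, and the deposited −log10 q is their significance of a peak. There is no count of reads, so depth per sample is unknown.

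Peaks of the 16 lists on the main chromosomes were assigned with Python 3.11.15, numpy 2.4.6, pandas 2.3.3 and numba 0.67.0 to protein-coding genes of GENCODE 44 by the distance of a peak's edge to any annotated start. Overlaps needed 1 bp, H3K27ac was taken within 500 bp of a RELA summit, and a tandem repeat was a self-match of 0.4 or more at shifts up to 400 bp in the 1000 bp around a summit. Functions were tested on simulated data. The genes and lists were chosen with earlier results of these data known. All genes with a RELA or RELB region or without FOSL1 are named, with the 12 highest by fold enrichment in full, the genes with most FOSL1 regions, the 5 highest and 5 lowest H3K27ac ratios at 6 h, and the 8 strongest sequences, of which 1 is not reported here. No test was run.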

Additional observations from a re-analysis of the deposited data

How the results depend on the processing

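No paired analysis was possible because each condition has 1 pooled list, and for the same reason no replicate could be left out. Of 177 recomputed values, 161 stayed within 1.5 times the main count or share, or within 1.1 times the main ratio, and 16 moved further, and no H3K27ac ratio crossed 1. The sign of the gap to the other genes turned in the following cases. RELA at 6 h TNFα was near 13.9% of these genes beside 14% of the others with q at most 0.001, and 17.2% beside 17.8% among genes with an acetylated start. RELA at 30 min TWEAK was near 2.78% beside 2.91% by the 5′ end alone, 3.62% with q at most 0.001 and 3.30% with the strongest peaks, and near 3.45% beside 4.77% with an acetylated start. RELA at 6 h TWEAK was near 0 genes beside 1.41% with the strongest peaks. RELB at 6 h TWEAK was near 2.78% beside 4.36% with the strongest peaks and 6.9% beside 8.24% with an acetylated start, and RELB at 6 h TNFα near 2.78% beside 3.34% within 50 kb. RELA at 30 min TNFα was near 10 genes within 5 kb (other genes 16.8%) and 6 with the 2000 strongest peaks alone (others 8.21%), and within 50 kb the gap was smaller, at 19 genes or 52.8% beside 44.3%. RELA at 6 h TNFα was near 11 genes within 50 kb and 3 with the strongest peaks. RELA in vehicle was near 2 within 50 kb. RELA at 30 min TWEAK was near 4 genes within 50 kb, and 1 by the gene's 5′ end alone, with q at most 0.001, with the strongest peaks, or among genes with an acetylated start. RELA at 6 h TWEAK was near 1 gene within 5 kb, with q at most 0.001 or outside tandem repeats, and 0 with the strongest peaks. RELB at 6 h TWEAK was near 6 within 50 kb and 1 with the strongest peaks. The comparison among genes with an acetylated start and the counting of a region for several genes were chosen after the data were seen. With an overlap of 0.5 of the shorter peak, 64.3% of the RELA regions near these genes had FOSL1 (others near a start 46.5%) and 57.1% had H3K27ac in vehicle (others 50.7%). Within 5 kb the H3K27ac medians of these and the other genes were 0.943 and 0.873 at 30 min TNFα, 0.96 and 0.995 at 6 h TNFα, 0.935 and 0.899 at 30 min TWEAK, and 0.889 and 0.909 at 6 h TWEAK. With q at most 0.001 they were 0.858 and 0.854, 0.911 and 0.991, 0.911 and 0.884, and 0.797 and 0.884.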
